A study of Homo sapiens with 3 samples.

Results

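NR4A1, NR4A2 and NR4A3 encode the NR4A group of orphan nuclear receptors. Their RNA was measured in MDA-MB-231 cells, an established human line from a basal-type breast cancer, usually counted among those without estrogen receptor alpha. Members were all probe sets of the array annotated to exactly 1 gene symbol, that symbol being an NR4A gene. This gave 9 probe sets, 3 for each of the 3 genes, of 41097 probe sets with 1 symbol and 54675 in all. The 3 cultures spent 4 h in medium with 10% charcoal-stripped serum, which is low in steroids, and then 3 h with vehicle (0.1% ethanol), with estradiol at 1 µM or with tamoxifen at 1 µM. Estradiol is a natural estrogen, and tamoxifen blocks the estrogen receptor in breast cancer treatment. By the labels there was 1 array per treatment, so no value below has an error, an interval or a test, and precision is limited by how few arrays there are. The genes were chosen by symbol after the NR4A2 differences between these same 3 arrays had been seen, so those differences are a description and support nothing by themselves.

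The deposited log2 values are centred for each probe set, on a baseline that the sources used here do not state. Base 2 was taken from the normalisation method, and that a higher value means more RNA was assumed. A value therefore shows where a probe set lay relative to that baseline, not how abundant its RNA was, and levels were compared within a probe set only. Brightness was read as a band from the binary steps on which the stored numbers lie. A probe set was taken as above the floor when its dimmest column was read in the log2 band 4 to 8 or 8 to 16. For 1 NR4A2 probe set, band readings from different columns conflict, as given below. Above this floor were 107 of 121 probe sets for ribosomal protein genes, against 14 of 107 for olfactory receptor genes. All 5 markers fixed for MDA-MB-231 (VIM, CD44, CAV1, AXL and MSN) lay above it. So did 2 of 6 luminal breast markers (GATA3 and, from 1 of its 9 probe sets, ESR1) and 1 of 4 leukocyte markers (PTPRC). Of 6 fibroblast and endothelial markers 3 did (COL1A1, PECAM1 and VWF). A place above the floor therefore does not by itself show that a gene was expressed. The vehicle column had a narrower spread over probe sets (SD 0.20) than the estradiol (0.47) and tamoxifen (0.46) columns. Its stored numbers also lay on binary steps 1 finer, so it may be a mean of 2 arrays although the labels give 1. A mean of 2 arrays would need no doubling. Doubling would apply only if the stored vehicle values had been scaled down, which is not known. As a check on that scale, each difference from vehicle has a second form, computed from a doubled vehicle value. Which form is closer to the true difference was not tested. Values of a pair of columns that lie equally far on either side of the baseline sum to 0. For estradiol and tamoxifen this held in 301 probe sets, within 1.1e-06. For the doubled vehicle value it held in 0 probe sets with estradiol and in 0 with tamoxifen. The vehicle value alone was 0 in 418 probe sets, against 93 for estradiol and 94 for tamoxifen. What these counts say about the vehicle column was not tested.

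NR4A receptors differ from the steroid receptors in how they are switched on. Bulky side chains fill their ligand pocket, they act without a classical ligand, and their activity follows mainly from how much of them is made. Their genes are immediate early genes, transcribed within minutes to hours of cAMP, calcium, growth factor or inflammatory signals through CREB, MEF2 and related factors. The proteins bind the NBRE element as monomers and related paired elements as dimers. NR4A1 (also called Nur77) and NR4A2 (Nurr1) can also pair with the retinoid X receptor.

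NR4A2, best known for its role in dopamine neurons, was higher with both ligands than with vehicle, and higher with tamoxifen than with estradiol. Probe set 216248_s_at, its brightest, had deposited values of -0.55 with vehicle, 0.50 with estradiol and 1.25 with tamoxifen. Probe set 204621_s_at had values of -0.55, 0.32 and 0.87, and 204622_x_at had values of -0.28, 0.57 and 1.2. The order vehicle, estradiol, tamoxifen from low to high was the same in all 3 probe sets. No probe set of the gene went against the others.

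The estradiol minus vehicle differences of the NR4A2 probe sets were 1.04, 0.87 and 0.85 on the log2 scale, in the order above, which is 2.06-fold, 1.83-fold and 1.80-fold. The tamoxifen minus vehicle differences were 1.79, 1.42 and 1.48, or 3.47-fold, 2.68-fold and 2.78-fold. All 3 probe sets passed a size rule of 1.5-fold with each ligand. Over all probe sets with 1 symbol, 5.93% were at least 1.5-fold higher with estradiol and 6.18% with tamoxifen. Nothing is read from that comparison, since the gene was picked for these differences. Compared directly, tamoxifen exceeded estradiol by 0.75, 0.55 and 0.63. Of these, 2 of 3 passed 1.5-fold, and 204621_s_at stood at 1.47-fold, just inside the rule. Of all probe sets with 1 symbol, 3.60% passed upward in that comparison.

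With the vehicle value doubled, the NR4A2 differences were wider, at 1.59, 1.42 and 1.13 for estradiol and at 2.34, 1.97 and 1.76 for tamoxifen. Averaging all 3 probe sets gave 0.92 and 1.56 against vehicle and 0.64 between the ligands. Poly-A spikes, which are bacterial RNAs put into the sample as labelling controls, moved with the vehicle comparisons. Over 24 probe sets their median difference from vehicle was 1.04 with estradiol and 0.87 with tamoxifen, and 0.47 and 0.39 with the vehicle doubled. Between tamoxifen and estradiol the spike median was -0.17, opposite in sign to the NR4A2 differences. The gap between the 3′ and 5′ actin control probe sets, a measure of RNA integrity and labelling, was wider on the tamoxifen array by 0.89 against vehicle and by 0.94 against estradiol, while the GAPDH gap moved by 0.16 and 0.11. The part of the spikes and of the actin gap in the NR4A2 result was not tested.

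**Figure D1:**
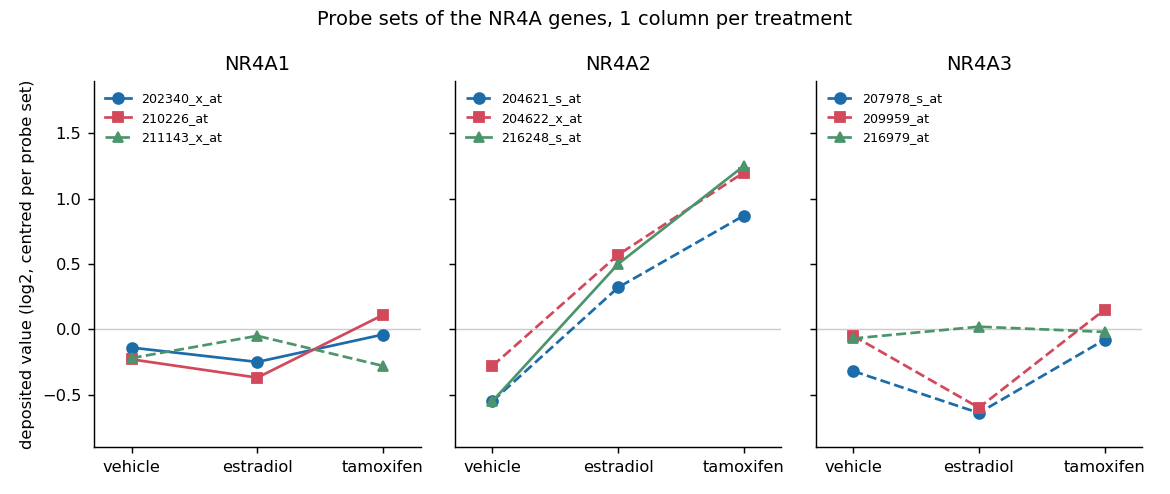
Deposited log2 values of the 9 NR4A probe sets (vertical axis, centred per probe set) in the vehicle, estradiol and tamoxifen columns (horizontal axis), 1 point per array, with solid lines for probe sets above the brightness floor and dashed lines for those below. The 3 NR4A2 lines climb together from vehicle to tamoxifen, while 1 line of NR4A1 and 1 of NR4A3 run against the others of their gene.

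NR4A1, the family member first described as a growth factor-induced gene, did not pass 1.5-fold in any comparison or probe set. Probe set 202340_x_at had deposited values of -0.14 with vehicle, -0.25 with estradiol and -0.04 with tamoxifen, and 210226_at had -0.23, -0.37 and 0.11. Both lay above the floor and placed estradiol lowest and tamoxifen highest. The dimmer 211143_x_at, at -0.22, -0.05 and -0.28, gave the reverse order. The estradiol minus vehicle differences were -0.11, -0.14 and 0.17, and the tamoxifen minus vehicle differences were 0.11, 0.34 and -0.06. Between tamoxifen and estradiol they were 0.22, 0.48 and -0.23. The probe sets thus disagreed in sign in every comparison. The mean over the pair above the floor was -0.13 with estradiol, 0.23 with tamoxifen and 0.35 between them. With the vehicle doubled the estradiol difference changed sign, to 0.06, and the tamoxifen difference was 0.41.

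NR4A3 (NOR1), the partner of EWSR1 in the fusion of extraskeletal myxoid chondrosarcoma, had no probe set above the floor. Its brightest probe set, 209959_at, had values of -0.05 with vehicle, -0.60 with estradiol and 0.15 with tamoxifen. Probe set 207978_s_at had values of -0.32, -0.64 and -0.08. Estradiol was lowest and tamoxifen highest in both. The remaining probe set, 216979_at, stayed near the baseline at -0.07, 0.02 and -0.02, with vehicle lowest. Against vehicle the differences with estradiol were -0.55, -0.32 and 0.09, and with tamoxifen 0.20, 0.24 and 0.05, none of them past 1.5-fold. Between tamoxifen and estradiol they were 0.75, 0.56 and -0.04, so that 209959_at passed the rule at 1.68-fold and 207978_s_at, at 1.47-fold, did not. With the vehicle doubled, 209959_at differed from vehicle by -0.50 with estradiol, while 207978_s_at differed by 0.01.

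Over the family, 3 of 9 probe sets passed 1.5-fold upward with estradiol (background 5.93%) and 3 of 9 with tamoxifen (background 6.18%), all of them NR4A2. None of the 9 passed downward, where 4.26% and 4.85% of all probe sets with 1 symbol did. In the direct ligand comparison 3 of 9 passed upward, 2 of NR4A2 and 1 of NR4A3, against a background of 3.60%, and none downward, against 3.84%. At 2-fold, all 3 NR4A2 probe sets passed with tamoxifen (background 1.2%) and 216248_s_at alone with estradiol (background 1.12%). In the direct comparison none of the 9 did (background 0.275%). Nor did any of the 9 lie 2-fold lower, where 0.735% of all probe sets with 1 symbol did with estradiol, 0.798% with tamoxifen and 0.380% between the ligands. The 3 NR4A2 probe sets read 1 gene on the same arrays. Nothing is read from these family counts, since the family was chosen after the NR4A2 differences were seen.

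**Figure D2:**
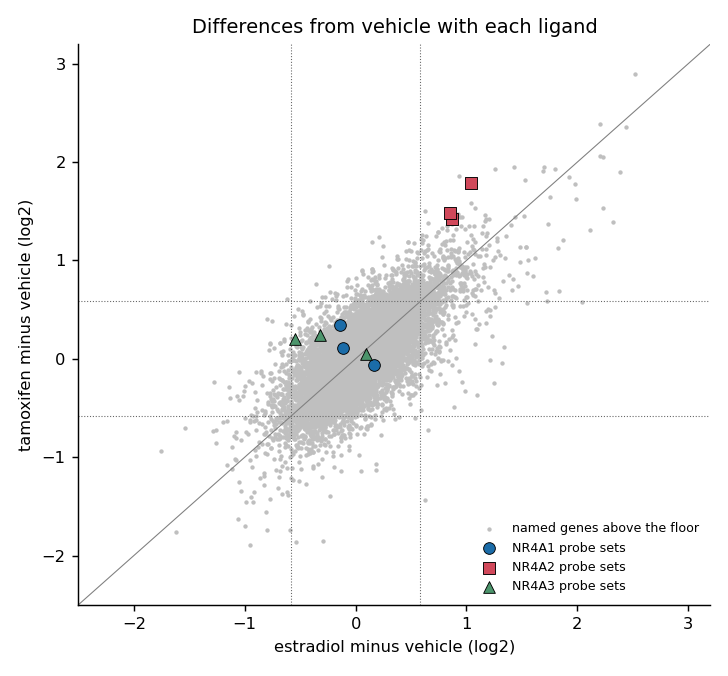
Difference from vehicle with estradiol (horizontal axis, log2) against that with tamoxifen (vertical axis, log2) for 12067 named genes above the floor (grey) and for the 9 NR4A probe sets (coloured by gene), with dotted lines at 1.5-fold and a line where both are equal. The vehicle column enters both axes. The NR4A2 probe sets lie past the rule on both axes and above the line, and those of NR4A1 and NR4A3 lie within the rule on both.

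Promoter sequences are shown because CREB, the factor switched on by cAMP, is the textbook route to NR4A transcription and binds the cAMP response element (CRE). They come from RefSeq on build GRCh38.p14 and run from 250 bases before to 50 after a gene start, 5′ to 3′. The sequences available covered 2 starts for NR4A1, 1 for NR4A3 and 0 for NR4A2, so nothing is shown for NR4A2. Any other starts of these genes were not searched. For NR4A1, upstream and downstream below name these 2 starts relative to each other only. Capitals mark the core CRE letters TGACG on either strand, so that CGTCA in capitals is a match on the opposite strand.
NR4A1 upstream start, chr12:52022582-52022881, plus strand: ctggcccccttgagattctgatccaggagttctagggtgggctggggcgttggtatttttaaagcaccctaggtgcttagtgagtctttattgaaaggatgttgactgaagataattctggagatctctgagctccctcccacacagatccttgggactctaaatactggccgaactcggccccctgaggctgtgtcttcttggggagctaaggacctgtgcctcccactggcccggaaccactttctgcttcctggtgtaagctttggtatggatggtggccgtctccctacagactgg
NR4A1 downstream start, chr12:52037465-52037764, plus strand: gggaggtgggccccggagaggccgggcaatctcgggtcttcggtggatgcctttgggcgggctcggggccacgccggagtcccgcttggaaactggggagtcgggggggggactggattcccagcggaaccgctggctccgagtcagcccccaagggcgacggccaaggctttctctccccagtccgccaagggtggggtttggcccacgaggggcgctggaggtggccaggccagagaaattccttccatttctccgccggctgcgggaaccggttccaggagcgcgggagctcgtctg
NR4A3, chr9:99821635-99821934, plus strand: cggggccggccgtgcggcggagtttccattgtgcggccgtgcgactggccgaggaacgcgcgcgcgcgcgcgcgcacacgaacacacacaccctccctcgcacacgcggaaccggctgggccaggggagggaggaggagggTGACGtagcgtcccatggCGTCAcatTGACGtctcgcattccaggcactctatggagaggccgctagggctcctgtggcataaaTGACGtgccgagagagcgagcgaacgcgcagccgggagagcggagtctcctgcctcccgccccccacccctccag

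The NR4A3 window held 4 matches to TGACG, beginning 109, 91, 83 and 25 bases before the start. Neither of the NR4A1 windows searched held any. With other NR4A1 starts not searched, this does not show that the gene lacks such a match. Of 35116 promoters of the same length, 24.6% held at least 1 such match and 0.313% held 4 or more. The full palindrome TGACGTCA, which contains TGACG on both strands, was in 1.85% of promoters and in none of these 3. Nor did any of the 3 hold the NBRE (AAAGGTCA, in 1.22% of promoters), the AP-1 site TGANTCA (7.71%) or the TATA box letters TATAAA (11.5%), each searched on both strands. The GC box GGGCGG, in 45.0% of promoters, was found once in the downstream NR4A1 window and once in that of NR4A3. The bases G and C made up 53.3%, 69.7% and 69.7% of the 3 windows. These are letters in a window and not measured binding, and their part in the values of the NR4A genes was not tested.

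Agreement between the probe sets of a gene was set beside the 2778 genes on the array that had exactly 3 probe sets, as each NR4A gene does. Probe sets of a gene share the sample, so their agreement describes the array's readings and not how the treatment would repeat. Every NR4A2 probe set is of a type that can cross-react (names ending in _x_at or _s_at). Agreement there need not mean that NR4A2 RNA was read correctly. The span, the highest minus the lowest of the 3 differences, was 0.19 for NR4A2 with estradiol, 0.37 with tamoxifen and 0.20 between the ligands. The median spans over these genes were 0.46, 0.45 and 0.44, and 85.8%, 61.2% and 84.3% of genes had a wider span than NR4A2. NR4A1 had spans of 0.31, 0.40 and 0.71, and NR4A3 of 0.64, 0.19 and 0.79. Between the ligands, 19.7% of genes had a wider span than NR4A1 and 14.7% a wider one than NR4A3. All 3 probe sets gave the same order of the columns in 210 of the 2778 genes (7.56%), and the order seen in NR4A2 in 53 (1.91%). In 9 genes (0.324%) all 3 probe sets passed 1.5-fold upward with both ligands. Of these 9, NR4A2 and TNFSF10, a death receptor ligand named after its values were seen, were higher with tamoxifen than with estradiol in all 3 probe sets, by at least 0.55 and 0.29. Because NR4A2 was picked for its differences, nothing is read from how few genes share its order or calls.

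**Figure D3:**
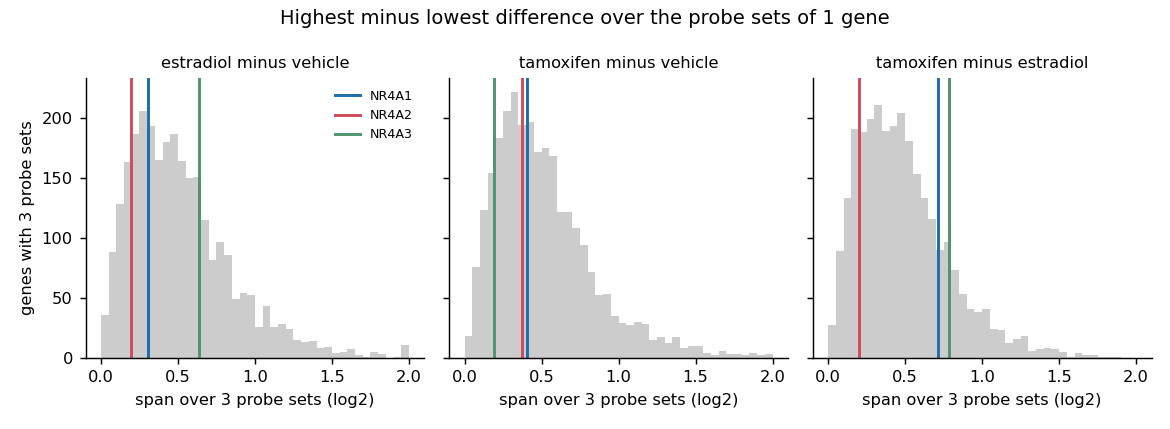
Number of genes (vertical axis) by span of the log2 difference over 3 probe sets (horizontal axis, values of 2 or more in the last bar) for the 2778 genes with 3 probe sets, 1 panel per comparison, with a vertical line for each NR4A gene. NR4A2 lies left of the median in all 3 panels, and NR4A1 and NR4A3 lie right of it between the ligands.

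At the level of genes, a value is the mean over the probe sets in the brightest band of that gene. For NR4A2 this was 216248_s_at alone, at 1.04, 1.79 and 0.75 in the 3 comparisons. These ranked 119th, 16th and 65th from the top among 12067 genes above the floor. Nothing is read from the ranks, since the gene was picked for these differences. The other probe sets of NR4A2 fell below the floor through the reading of the vehicle column. From the ligand columns alone, 204621_s_at would be in the 8 to 16 band and 204622_x_at in the 4 to 8 band. For 204621_s_at the band over all columns was 2 to 4. That lies further from 8 to 16 than its differences from vehicle, 0.87 and 1.42, allow. At least 1 of these band readings is thus wrong, and which one was not tested. The mean of 204621_s_at and 216248_s_at, the pair in the brightest band from the ligand columns, was 0.96, 1.61 and 0.65. That choice of columns was made after the data were seen. It lets probe sets in through the columns where NR4A2 was higher, so these values add no support. Among the 12067 genes, 9 (0.0746%) were past 1.5-fold in all 3 comparisons. They included NR4A2, which was picked for such differences. The others were the integrin gene ITGB8, SHISA2, the nuclear receptor coactivator gene PNRC1, ADGRL2, HMGN5, FOXP4-AS1, ETNK1 and the hedgehog-binding protein gene HHIP.

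Other nuclear receptors give the setting for the family. Of 48 human nuclear receptor genes listed, 39 were analysed here and 25 lay above the floor, NR4A1 and NR4A2 among them. Without the NR4A genes, 2 of 23 receptors were at least 1.5-fold higher with estradiol (8.70%, against 5.83% of all 12067 genes) and none lower (2.65% of all). With tamoxifen 2 of 23 were higher (8.70%, against 6.97%) and 1 was lower (4.33% of all). Between the ligands 1 was higher with tamoxifen (1.57% of all) and 1 lower (2.20% of all). Their median difference was 0.06 with estradiol and 0.11 with tamoxifen, against 0.02 and 0.02 over all genes. NR4A2, picked for these differences, had the highest difference from vehicle of the 25 receptors with either ligand. NR4A1 ranked 20th with estradiol and 9th with tamoxifen.

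NR3C2, the mineralocorticoid receptor, followed NR4A2 with estradiol at 0.97 and stood at 0.69 with tamoxifen, but at 0.41 and 0.13 with the vehicle doubled. NR2F1 (COUP-TF1), an orphan receptor that often represses transcription, differed by 0.25 with estradiol and by 1.14 with tamoxifen. It was the one receptor of the 25 above NR4A2 in the direct comparison, at 0.90 against 0.75. PPARG, the fat cell receptor, was at 0.59 with estradiol and 0.55 with tamoxifen, and at 0.51 with estradiol once the vehicle was doubled. Doubling also brought PPARA (0.69) and RARB (0.66) past the rule with tamoxifen, both named after their values were seen, and left no other receptor than NR4A2 past it with estradiol. ESR1, which encodes estrogen receptor alpha, was at 0.04 with estradiol and -0.70 with tamoxifen from 1 of its 9 probe sets, and at -0.02 and 0.03 over all 9. The retinoid X receptors that pair with NR4A1 and NR4A2 differed little, RXRA by -0.10 and 0.17 and RXRB by -0.02 and -0.25.

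**Figure D4:**
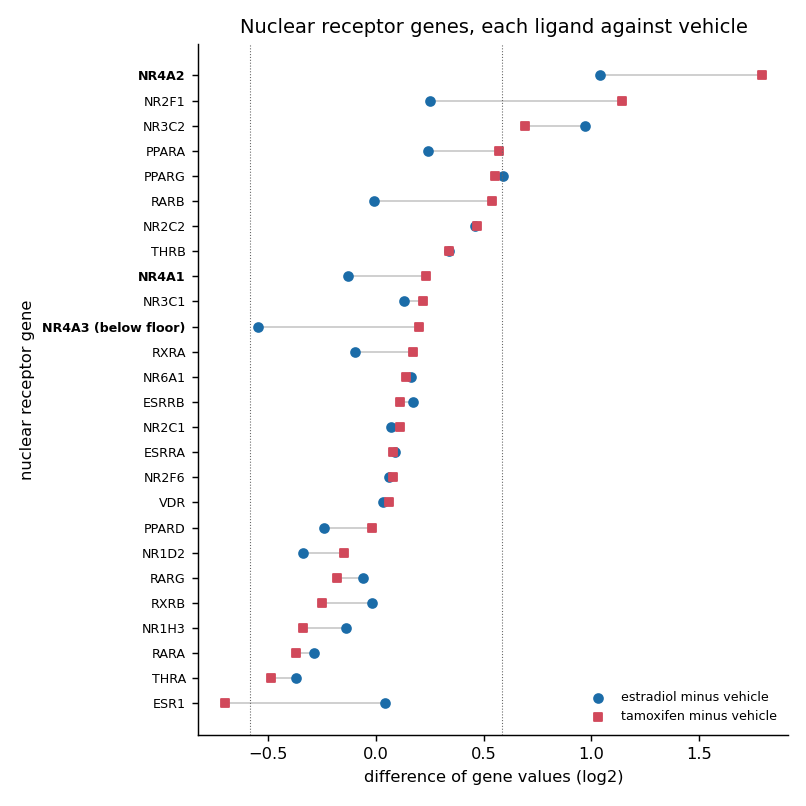
Log2 difference from vehicle (horizontal axis) with estradiol (blue circles) and with tamoxifen (red squares) for the 25 nuclear receptor genes above the floor and for NR4A3, which was below it (vertical axis, ordered by the tamoxifen difference), with dotted lines at 1.5-fold. NR4A2 stands at the top with 1.04 and 1.79, and NR4A1 and NR4A3 lie within the lines.

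Genes known to regulate NR4A transcription were next described by a list of 22 (activators, their kinases and coactivators, and the deacetylases HDAC4, HDAC5 and HDAC7, which repress MEF2 factors), of which 21 were analysed here and all 21 lay above the floor. With estradiol 4 were at least 1.5-fold higher (19.0%, against 5.83% of all genes above the floor) and with tamoxifen 3 (14.3%, against 6.97%). None was lower (2.65% and 4.33% of all), and none passed in the direct comparison (1.57% higher and 2.20% lower of all). The medians were 0.08, 0.08 and -0.06. MEF2C, of the factor family that links calcium signals to NR4A1 transcription, was at 1.01 with estradiol and 1.06 with tamoxifen. PRKACB, a catalytic subunit of the cAMP-dependent kinase that activates CREB, was at 0.64 and 1.05, and its regulatory subunit PRKAR1A at 0.36 and 0.64. ELK1, a target of ERK, was at 0.60 and 0.53, and the NF-kB subunit NFKB1 at 0.61 and 0.10. CREM, a CREB relative that cAMP induces, was at 0.42 and 0.58 and so within the rule. With the vehicle doubled, MEF2C (0.64 and 0.69) and, with tamoxifen, PRKACB (0.84) still passed, while PRKACB with estradiol (0.43), PRKAR1A with tamoxifen (0.34), ELK1 (0.49) and NFKB1 (0.58) with estradiol did not, and CREM with tamoxifen (0.66) passed. Over all 4 of its probe sets PRKAR1A was at 0.09 and 0.19, and over all 3 of its own ELK1 was at 0.43 and 0.44. Averaged in the same way, MEF2C (0.76 and 0.68) and PRKACB (0.61 and 0.98) stayed past the rule.

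Other CREB targets and immediate early genes, which share inducers with the NR4A family, numbered 27 in the list, with 23 analysed here and 19 above the floor. With estradiol 6 of 19 were higher (31.6%, against 5.83% of all genes above the floor) and none lower (2.65% of all). With tamoxifen 5 were higher (26.3%, against 6.97%) and 1 lower (4.33% of all). The medians were 0.39 and 0.37. An earlier analysis of these data had described genes of this kind as higher, so the counts are not independent evidence. FOS, an AP-1 subunit, was at 1.0 with estradiol and 0.82 with tamoxifen, and the phosphodiesterase gene PDE10A at 0.88 and 1.21. KLF10 was at 0.51 and 0.94, KLF4 at 0.76 and 0.85, and MYC at 0.69 and 0.31. IER3, at 0.69 with estradiol, was named after its values were seen. In the direct comparison PPARGC1A, a coactivator of energy metabolism, was at 0.84, near the 0.75 of NR4A2, and the stress factor gene ATF3 was at -0.78. The list median there was -0.04. DUSP1, a phosphatase of MAP kinases named after its values were seen, was the member lower with tamoxifen, at -0.59. With the vehicle doubled, 3 of the 6 genes past the rule with estradiol still passed, as did 4 of the 6 with tamoxifen. Those that did not were ATF3 (0.48), KLF4 (0.36) and MYC (0.54) with estradiol, and PPARGC1A (0.58) and KLF4 (0.45) with tamoxifen. In that setting SIK1, a kinase that cAMP induces, named after its values were seen, passed with both ligands (0.69 and 0.66) and CREM with tamoxifen (0.66), so that 4 members were higher with estradiol and 5 with tamoxifen. As deposited, SIK1 was at 0.53 and 0.49 from 1 of its 2 probe sets, and at 0.14 and 0.10 over all of them. Over all their probe sets PDE10A was at 0.55 and 0.79 and PPARGC1A at 0.00 and 0.30 against vehicle, and DUSP1 was at -0.10 with tamoxifen. In the direct comparison PPARGC1A was then at 0.29 and ATF3 at -0.30, both within the rule, and ATF3 was at 0.35 with estradiol.

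Protein partners of the NR4A receptors were listed as 18 genes, with 14 analysed here and 13 above the floor. NCOA1, a steroid receptor coactivator, was the member past the rule, at 0.59 with estradiol and 0.65 with tamoxifen, and at 0.34 and 0.26 over its 4 probe sets. The list counts were 1 of 13 higher with each ligand (7.69%, near the 5.83% and 6.97% of all genes above the floor) and none lower (2.65% and 4.33% of all). NCOA2 was at 0.39 and 0.58, TRIM28 at -0.18 and -0.52, and BCL2, which NR4A1 binds at mitochondria, at -0.09 and 0.30. PRKDC, the DNA repair kinase, was at -0.46 and -0.26, and PML at -0.21 and -0.34. NCOA2 passed with tamoxifen when the vehicle was doubled (0.68), and in that setting TRIM28 was at 0.14 and -0.20 and PRKDC at -0.12 and 0.07, so the sign turned for TRIM28 with estradiol and for PRKDC with tamoxifen.

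Of 25 genes reported elsewhere as NR4A targets, 24 were analysed here and 10 lay above the floor. With estradiol 1 of 10 was higher (5.83% of all genes above the floor) and 2 were lower (2.65% of all). With tamoxifen none was higher (6.97% of all) and 1 was lower (4.33% of all), and none passed in the direct comparison (1.57% higher and 2.20% lower of all). Their medians were -0.03, -0.06 and -0.08. Targets below the floor were not counted. Among them VCAM1 was at 1.29 with estradiol and 1.32 with tamoxifen, and at 0.62 and 0.64 with the vehicle doubled. SLC2A4, also below the floor, was at 0.33 and 0.66. Both were named after their values were seen, and no other target below the floor passed 1.5-fold against vehicle as deposited, in either direction. The muscle enolase gene ENO3 was at -0.59 with estradiol and -0.99 with tamoxifen, and the cyclin gene CCND1 at -0.59 and -0.36. Over its 2 probe sets ENO3 was at -0.42 and -0.59. NRP1, a semaphorin and VEGF receptor, was at 0.65 and 0.51, and at 0.20 and 0.31 over all 4 of its probe sets. With the vehicle doubled, ENO3 with tamoxifen (-0.76) still passed, while NRP1 (0.38), ENO3 (-0.35) and CCND1 (-0.42) with estradiol did not. SLC6A3, the dopamine transporter, was at 0.43 and 0.13 and, with the vehicle doubled, passed with estradiol at 0.71. SKP2 was at 0.09 and 0.34, and FBP1 at 0.04 and -0.25. GAPDH and ACTB, given as references, were at -0.11 and -0.05 with estradiol and at -0.17 and -0.34 with tamoxifen.

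Likeness of pattern was measured as the Euclidean distance over the 3 columns, each gene centred on its own mean, among 12065 genes above the floor other than NR4A1 and NR4A2. With 3 arrays such a distance is a description of a few numbers. The genes nearest to NR4A2 were SHISA2 (distance 0.12), ITGB8 (0.15), the collagen gene COL6A3 (0.17), the arrestin-domain gene ARRDC3 (0.23) and CFP (0.23), and no other gene lay within 0.25. Their differences with tamoxifen ran from 1.47 for CFP to 1.93 for ITGB8. For NR4A1, whose pattern was nearly flat, 3132 genes lay within 0.25, and the nearest were YES1, MASTL, FOXJ1, ERICH4 and SUZ12, each at 0.01. NR4A3 had 252 genes within 0.25, led by CPLX3 at 0.01, although its own value came from below the floor. With the vehicle doubled no gene lay within 0.25 of NR4A2, the nearest were BMP2 (0.32), ARRDC3 (0.46), GEM (0.47), MNX1 (0.55) and TRPS1 (0.58), and ARRDC3 was the 1 gene in both sets.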

How the data were processed

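Biotin-labelled RNA was hybridised to Affymetrix arrays of 54675 probe sets, per the labels' protocols. The deposited log2 values were made with RMA (no version given), per the submitters' processing notes; base 2 was taken from RMA, and the per-probe-set centring is not described there. Column medians were -0.04, -0.02 and -0.02 for vehicle, estradiol and tamoxifen. The sources used here do not say whether a column pools arrays. Of the probe sets, 41097 had 1 symbol in the platform annotation, 1801 had several and 11777 were not in it. Differences were taken within a probe set with Python 3.11.15, numpy 2.4.6 and pandas 2.3.3. Bands came from the finest binary step over the columns, after vehicle steps were taken as 1 coarser. The code was tested on simulated data in which the vehicle was made as a mean of 2 arrays. Simulated levels lay away from the band edges, and bands were read before any difference was added. That test was therefore no check on the vehicle step or on bands of probe sets whose columns differ. Members, lists and alternatives were chosen with earlier results of these data known. Genes named were all NR4A probe sets, receptors past 1.5-fold, up to 4 members per other list and comparison with the widest differences, the 5 nearest patterns per NR4A gene above the floor, GAPDH and ACTB; any others were named after their values were seen. The reading of bands from the ligand columns alone was chosen after seeing the data. Sequences are from RefSeq, GRCh38.p14. Doubling the vehicle, centring, floors, probe set choice and a 2-fold rule were the alternatives.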

Additional observations from a re-analysis of the deposited data

How the results depend on the processing

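The 1 NR4A gene past 1.5-fold above the floor, NR4A2, was counted alike in each comparison as deposited, with the columns centred on their medians or within brightness bands, with all probe sets averaged, and with a floor at the 8 to 16 band. Doubling the vehicle left the count at 1 in both vehicle comparisons. Without the probe set types that can cross-react (names ending in _x_at or _s_at) the count was 0 in all 3 comparisons, because every NR4A2 probe set is of these types. In the direct ligand comparison the count was 2 with no floor and 2 with bands from the ligand columns, NR4A3 being added, and 0 at 2-fold. The ligand-column bands were chosen after the data were seen, and let NR4A3 in through the same columns that are compared. Over all genes, the count past the rule was 1024, 1363 and 456 in the comparisons with estradiol, with tamoxifen and between the ligands. It was 364, 510 and 124 with a floor at the 8 to 16 band and 161, 206 and 39 at 2-fold, and between the ligands 1029 with no floor and 282 with all probe sets averaged. NR4A2 ranged from 0.92 to 1.59 with estradiol, from 1.56 to 2.34 with tamoxifen and from 0.64 to 0.75 between the ligands. NR4A3 ranged from -0.56 to -0.26 with estradiol, and NR4A1 from -0.14 to 0.06. No paired analysis was possible because the labels give 1 array per treatment. No probe set of NR4A3 cleared the floor with bands read over the 3 columns, and 209959_at alone did with bands from the ligand columns.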

Other observations

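Genes beside the NR4A loci were compared with their NR4A neighbour, a check chosen after the NR4A values were seen. Of the 3 protein-coding genes on each side of NR4A1, NR4A2 and NR4A3 in the RefSeq order, 16 were analysed here and 13 lay above the floor. Past 1.5-fold in either direction were 1 with estradiol (GALNT5, near NR4A2, at 0.63), 1 with tamoxifen (TGFBR1, a TGF-beta receptor near NR4A3, at 0.79) and none between the ligands. Of all genes above the floor, 5.83% were higher and 2.65% lower with estradiol, and 6.97% higher and 4.33% lower with tamoxifen. The shares between the ligands were 1.57% higher and 2.20% lower. Between the ligands the 13 ran from -0.27 to 0.35. GPD2, beside NR4A2, was at 0.42 with estradiol and 0.39 with tamoxifen, and at -0.03 between the ligands.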
